A study of Mus musculus with 8 samples.

Results

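The skeletal muscle genes described here are 31 genes that build, switch and fuel the contractile apparatus, measured as ribosome footprints in mouse dorsal root ganglia, the clusters of sensory neuron cell bodies along the spinal cord. They were taken as every row of the 2 deposited tables whose gene symbol equals a listed member. All 31 listed symbols were found, each in 1 row, among 48431 gene rows with 48315 symbols. The genes were chosen by their CPM levels, because these moved together from library to library in these same data. That joint movement is therefore given below as a description, without a test, and supports nothing.

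The series holds ribosome profiling of ganglia from wild-type mice of the SW strain that received saline, with 4 libraries labelled female and 4 labelled male. All 8 libraries shared strain, genotype and saline, so sex is the only labelled contrast. The sources used here give neither the age of the animals nor whether a library pooled several of them, so p-values measure the spread between these libraries, which may be technical. Ribosome-bound RNA was isolated on spin columns, depleted of ribosomal RNA and size-selected to fragments of 28 to 34 nucleotides. Values are CPM, read counts scaled so that the genes of a library add up to 1e+06. A long coding sequence collects more footprints, so levels of different genes were compared only per kilobase of coding sequence.

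Skeletal muscle shortens when thick filaments of myosin pull on thin filaments of actin, both arranged in repeating units called sarcomeres. Calcium released from the sarcoplasmic reticulum binds troponin and shifts tropomyosin, which exposes the actin sites that myosin grips, and a calcium pump then clears the ion. Thin filaments are anchored in the Z-disc, titin spans from there to the middle of the sarcomere, and creatine kinase, glycogen breakdown and myoglobin supply the energy. Most of these proteins are known from striated muscle fibres rather than from sensory neurons or their glia. Ganglia are bulk tissue, in which fewer cells of a type and less RNA per cell cannot be told apart.

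Before the members are described, 3 of the 8 libraries went against their sex label. Summed footprints of Y-linked genes were 121 CPM in female 1 and 138 CPM in female 3. In male 1 the sum was 2.70 CPM, with 10.6 CPM of Xist, which acts in X inactivation. Female 1 and female 3 were also close to each other: 1.73% of 13385 genes differed between them at p under 0.001, against 0.134% from sampling of reads and 13.0% to 37.9% in the other 27 pairs of libraries. No member differed between these 2 libraries by more than 0.27 on the log2 scale, whereas in each of the other 27 pairs the largest member difference was at least 0.67. Depth ran from 3697690 assigned reads in male 1 to 12714551 in male 3. "Female" and "male" below mean the library labelled so, and the comparison of labelled sexes is given with and without these 3 libraries. The ganglion origin was checked with 14 pan-neuronal genes, which summed to 22247 to 35673 CPM, and with 10 genes of satellite glia and Schwann cells, which summed to 24572 to 32799 CPM.

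Together the 31 members took up between 0.486% and 1.5% of all assigned reads, a 3.08-fold range. Female 1 held 1.5% (95% Wilson interval 1.49 to 1.51), female 2 held 0.486% (0.482 to 0.491), female 3 held 1.49% (1.484 to 1.498) and female 4 held 0.680% (0.674 to 0.686). Male 1 held 1.24% (1.23 to 1.25), male 2 held 0.650% (0.644 to 0.656), male 3 held 0.926% (0.921 to 0.932) and male 4 held 0.527% (0.522 to 0.533). The intervals cover counting error only, since reads without molecular identifiers are not independent molecules. Female 1 and female 3 stood highest, male 1 and male 3 followed, and the labelled sexes overlapped. As a percentage of the summed pan-neuronal level, the members came to 42.0, 15.5, 42.5 and 23.2 in female libraries 1 to 4. The same percentage was 55.6, 22.2, 26.5 and 19.5 in male libraries 1 to 4, so male 1, which had the lowest neuronal sum, became the highest library on that measure.

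**Figure D1:**
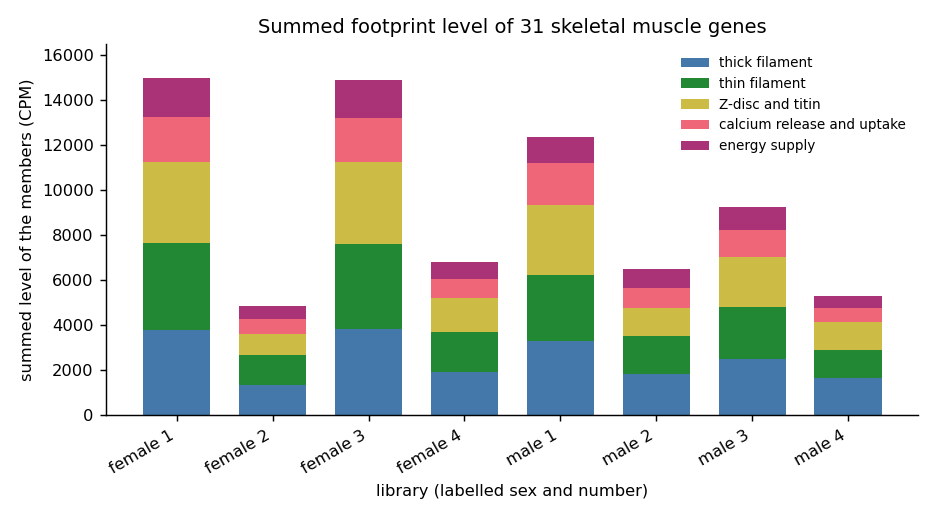
Bars give the summed level of the 31 members in CPM for each of the 8 libraries, divided by the role of the genes. The sum ran from 4864 CPM in female 2 to 14999.5 CPM in female 1, and each role took a similar part of every bar.

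The 5 roles took similar parts of the total in every library. Thick filament genes made up 25.2% to 31.3% of the member sum, thin filament genes 23.2% to 27.4%, and Z-disc genes with titin 19.3% to 25.2%. Calcium handling genes made up 11.7% to 15.1% and energy supply genes 9.28% to 13.2%. Male 1 had the highest calcium handling share and the lowest energy supply share, and male 4 had the highest thick filament share.

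Myosin heavy chains are the motors of the thick filament, and the 3 members Myh1, Myh2 and Myh4 encode the fast forms found in type IIX, IIA and IIB fibres. They stand in 1 cluster on chromosome 11 (Myh2 at chr11:67171027-67197517, + strand; Myh1 at chr11:67200052-67224575, + strand; Myh4 at chr11:67238029-67260446, + strand; GRCm38). Their coding sequences are so alike that short footprints cannot always be assigned to 1 of them. Over 5436 aligned bases, Myh1 and Myh2 were 91.2% identical, Myh1 and Myh4 90.05%, and Myh2 and Myh4 88.2%. A pair of windows of 90 bases is shown, 1 with the fewest and 1 with the most differing positions within the 36 of 38 coding exons of equal length. They are longer than a footprint. In the first window, with 0 differing positions, a footprint fits all 3 genes equally:
Myh1 (chr11:67213605-67213694): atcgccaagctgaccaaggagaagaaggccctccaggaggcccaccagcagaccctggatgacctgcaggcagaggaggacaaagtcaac
Myh2 (chr11:67188704-67188793): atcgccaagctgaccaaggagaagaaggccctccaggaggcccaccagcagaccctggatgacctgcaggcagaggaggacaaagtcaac
Myh4 (chr11:67252224-67252313): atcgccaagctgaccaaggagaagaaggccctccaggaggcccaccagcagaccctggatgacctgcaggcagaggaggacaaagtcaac
In the second, 31 of 90 positions differ between at least 2 of the genes, and capitals mark them:
Myh1 (chr11:67211465-67211554): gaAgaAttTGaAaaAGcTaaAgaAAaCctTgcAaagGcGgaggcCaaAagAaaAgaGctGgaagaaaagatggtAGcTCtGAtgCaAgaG
Myh2 (chr11:67186621-67186710): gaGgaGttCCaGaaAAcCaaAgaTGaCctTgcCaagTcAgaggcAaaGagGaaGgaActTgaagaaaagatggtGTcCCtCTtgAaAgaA
Myh4 (chr11:67250888-67250977): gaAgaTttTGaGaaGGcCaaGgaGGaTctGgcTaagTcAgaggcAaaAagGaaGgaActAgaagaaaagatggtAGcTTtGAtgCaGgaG
Of all 28-nucleotide coding windows, the shortest footprint kept, 44.4% of Myh1, 42.8% of Myh2 and 34.0% of Myh4 also occur in a transcript of another gene. The windows are from GENCODE M21 transcripts on GRCm38, + strand. How such reads were divided is not given in the sources used here, so the split among these 3 genes is uncertain.

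Myh4 was 1100.1, 536, 1108 and 738 CPM in female libraries 1 to 4 and 678, 799, 747 and 797 CPM in male libraries 1 to 4. Its libraries spanned 2.07-fold, the narrowest range of the 31 members, and its 4 highest were female 1, female 3, male 2 and male 4. Myh1 was 1088, 228, 1079.8 and 407 CPM in female libraries 1 to 4 and 993, 378, 689.9 and 297 CPM in male libraries 1 to 4. Myh2 was 605, 204, 606 and 287 CPM in female libraries 1 to 4 and 963, 185, 413 and 240.2 CPM in male libraries 1 to 4. Myh1 was highest in female 1 and lowest in female 2, whereas Myh2 was highest in male 1 and lowest in male 2, a 5.21-fold range and the widest of the members. The labelled sexes overlapped for all 3 genes.

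Because these 3 genes mark fibre types, their mix was also followed, together with Myh7, the slow form of type I fibres, which is not a member. Myh4 made up 24.7% of the reads of the 4 genes in male 1 and 59.0% in male 4. Myh2 made up 35.1% in male 1 and 13.3% in male 2, against 17.8% to 21.5% in the other 6 libraries. Myh1 ran from 21.97% in male 4 to 36.9% in female 1, and Myh7 from 1.19% in male 4 to 5.15% in female 1. The 4 libraries with a Myh4 share above 50% were female 2, female 4, male 2 and male 4, the same 4 in which the member sum was lowest. The reads of Myh1, Myh2 and Myh4 that fit more than 1 gene enter this mix.

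**Figure D2:**
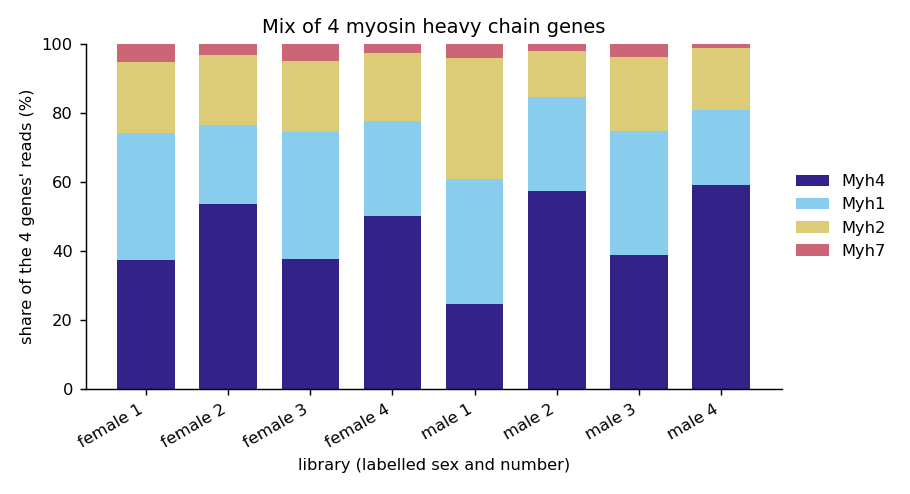
Bars divide the reads of Myh4, Myh1, Myh2 and Myh7 in each library into percentages. Myh4 ranged from 24.7% in male 1 to 59.0% in male 4, and Myh7 did not exceed 5.15% in any library.

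The remaining thick filament members are light chains and myosin-binding proteins. Mylpf, the fast regulatory light chain that sits on the myosin neck, was 264, 95.96, 238 and 149 CPM in female libraries 1 to 4 and 169, 113, 156 and 84.5 CPM in male libraries 1 to 4. Myl1, the fast essential light chain, was 321, 141, 367 and 143 CPM in female libraries 1 to 4 and 186, 191, 236 and 117 CPM in male libraries 1 to 4. Both were highest in female 1 and female 3 and lowest in male 4, but in Myl1 male 2 passed male 1. Of the 28-nucleotide windows of Myl1, 57.7% also occur in the pseudogene Mylf-ps, so its level is uncertain. Mybpc2, the fast form of myosin-binding protein C, was 185, 62.4, 185 and 85.2 CPM in female libraries 1 to 4 and 86.5, 81.5, 93.1 and 57.4 CPM in male libraries 1 to 4. Female 1 and female 3 stood apart from the other 6 libraries, which lay between 57.4 and 93.1 CPM. Mybpc1, the slow form of the same protein, ran from 57.1 to 227 CPM and was high in male 1 as well (224 CPM).

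Acta1 encodes the skeletal alpha-actin of the thin filament (chr8:123891769-123894751, - strand) and had the highest level per kilobase of the 31 members, 979.6 CPM per kilobase. It was 1709.6, 742, 1628 and 866 CPM in female libraries 1 to 4 and 1464, 862, 1008 and 583 CPM in male libraries 1 to 4. Female 1, female 3, male 1 and male 3 were the 4 highest libraries, and the labelled sexes overlapped. Of its windows, 7.97% recur in other genes, mostly Actb, the cytoplasmic actin. Neb encodes nebulin, a giant protein that runs along the thin filament, and was 652, 165, 657 and 257 CPM in female libraries 1 to 4 and 390.2, 217, 349 and 169.7 CPM in male libraries 1 to 4. It followed the same order at the top, with female 2 and male 4 lowest.

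Troponin and tropomyosin form the calcium switch of the thin filament. Tnnt3, the fast troponin T that ties the complex to tropomyosin, was 583, 173, 602 and 273 CPM in female libraries 1 to 4 and 409, 254, 388 and 191 CPM in male libraries 1 to 4. The same 4 libraries were highest, and the labelled sexes overlapped. Tnni2, the inhibitory subunit, ran from 79.3 to 329 CPM, Tnnc2, the calcium-binding subunit, from 57.1 to 239 CPM, and Tpm2, beta-tropomyosin, from 109.6 to 368 CPM. Each of these 3 was highest in female 1 or female 3.

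Titin, encoded by Ttn (chr2:76703980-76982547, - strand), is a giant protein that acts as a spring between the Z-disc and the middle of the sarcomere. It was 2684, 647, 2737 and 1139 CPM in female libraries 1 to 4 and 2457, 878, 1671 and 1001 CPM in male libraries 1 to 4. Female 1, female 3 and male 1 stood above male 3, and the 4 other libraries were at or below 1139 CPM. Ttn ranked first of the members by CPM (1652 ± 861 CPM, SD, n = 8) but 27th per kilobase (15.6 CPM per kilobase), since its coding sequence is 106 kilobases long.

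Z-disc proteins hold the thin filaments of neighbouring sarcomeres together. Actn3, the alpha-actinin of fast fibres, was 178, 62.2, 174 and 80.1 CPM in female libraries 1 to 4 and 87.9, 72.4, 84.7 and 57.5 CPM in male libraries 1 to 4. As with Mybpc2, female 1 and female 3 stood apart from the other 6 libraries, which lay between 57.5 and 87.9 CPM. Actn2, the alpha-actinin also used by slow and heart muscle, was 185 CPM in male 1, close to the 199.7 and 208 CPM of female 1 and female 3. Des, the desmin filament that links Z-discs, ran from 40.7 to 163 CPM, Ldb3, a Z-disc adaptor, from 39.5 to 104 CPM, and Nrap, a scaffold used in assembling myofibrils, from 24.2 to 107 CPM. Myot, or myotilin, which binds alpha-actinin, ran from 20.8 to 83.4 CPM. All 4 were highest in female 1 or female 3 and lowest in male 4.

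The 3 members with the lowest mean CPM also belong to the Z-disc group. Myoz1, a calcineurin-binding protein of fast fibres, was 49.7, 15.7, 55.1 and 21.5 CPM in female libraries 1 to 4 and 33.8, 24.8, 28.9 and 15.6 CPM in male libraries 1 to 4. Xirp2, an actin-binding repeat protein, was 21.5, 7.26, 22.8 and 13.6 CPM in female libraries 1 to 4 and 19.2, 10.04, 17.0 and 8.40 CPM in male libraries 1 to 4. Smpx, a small muscle protein encoded on the X chromosome, was 9.95, 6.33, 9.81 and 5.12 CPM in female libraries 1 to 4 and 10.01, 4.46, 7.55 and 3.98 CPM in male libraries 1 to 4. Myoz1 and Xirp2 had the common 4 libraries on top, and Smpx did too, with male 1 level with female 1. Even the lowest of these values, 3.98 CPM of Smpx in male 4, lay above the 0.442 CPM that 3 reads make in that library.

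Calcium handling members showed the same order. Atp2a1 encodes the fast calcium pump of the sarcoplasmic reticulum (chr7:126445858-126463108, - strand) and was 1609.6, 543, 1564 and 705 CPM in female libraries 1 to 4 and 1569.9, 750.0, 988 and 502 CPM in male libraries 1 to 4. Female 1, female 3 and male 1 lay close together at the top, and male 4 was lowest. Ryr1, the calcium release channel, ran from 56.4 to 207 CPM, Casq1, the calcium store protein calsequestrin, from 27.7 to 126 CPM, and Trdn, triadin, which links the channel to calsequestrin, from 15.2 to 51.8 CPM.

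Energy supply members spanned similar ranges. Ckm, muscle creatine kinase, which regenerates ATP from phosphocreatine, was 722, 277, 694 and 323 CPM in female libraries 1 to 4 and 420.0, 360.1, 433 and 213 CPM in male libraries 1 to 4. Female 1 and female 3 were highest, and male 1 lay only just below male 3. Pygm, muscle glycogen phosphorylase, which releases glucose units from glycogen, was 448, 157, 440.2 and 194 CPM in female libraries 1 to 4 and 356, 241, 265 and 160.4 CPM in male libraries 1 to 4. Eno3, the muscle enolase of glycolysis, ran from 94.4 to 314 CPM, and Mb, the oxygen-binding myoglobin, from 62.1 to 269 CPM. In all 4 genes female 1 was the highest library.

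**Figure D3:**
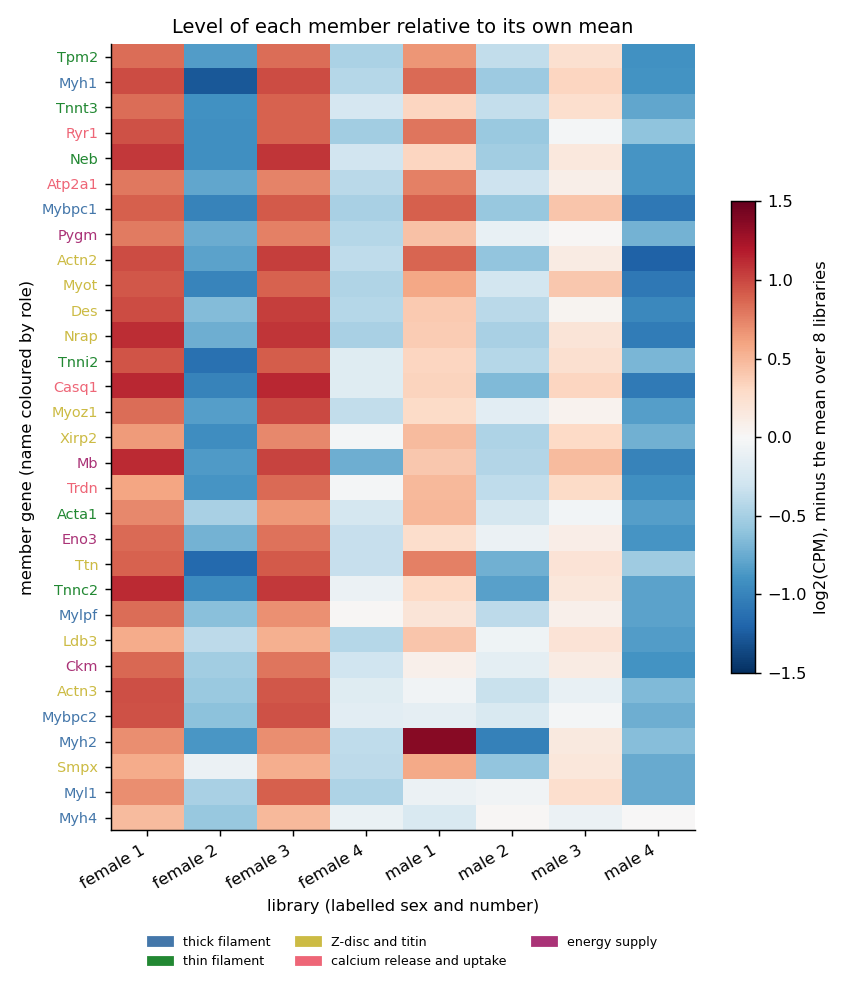
Colours give log2 CPM of each member minus its own mean over the 8 libraries, with genes ordered from the most to the least like the sum of the other members and names coloured by role. Female 1 and female 3 are above the mean in all 31 rows, female 2 is below it in all 31, male 4 is below it in 30, and Myh4 in the bottom row has the narrowest range, 2.07-fold.

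Ordered by level per kilobase of coding sequence, Acta1 (979.6 CPM per kilobase) was followed by Tnnt3 (440.0), Myl1 (377), Ckm (376), Atp2a1 (345), Tnni2 (337), Mylpf (313) and Mb (312). Xirp2 was lowest at 1.32 CPM per kilobase. Acta1 lay above Tnnt3 by more than the SD of either gene (381 and 204 CPM per kilobase, n = 8). From Tnnt3 down to Mb, each gene differed from the next by less than its SD between libraries, which was 159 CPM per kilobase for Myl1 and 127 for Mylpf. These SDs hold movement that the members share, so they do not measure the uncertainty of a difference between genes.

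In 29 of the 31 members the 4 highest libraries were female 1, female 3, male 1 and male 3, which was so for 2.02% of the 15720 genes that averaged 1 CPM or more. The exceptions were Myh4 and Myl1. Female 1 was the highest library for 16 members and female 3 for 13, and Myh2 and Smpx were highest in male 1. Male 4 was the lowest library for 20 members, female 2 for 10, and male 2 for Myh2. Members were listed for this pattern, so nothing is read from these counts.

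The size of the movement was also shared. On the CPM + 1 scale the highest library exceeded the lowest by a median of 3.38-fold over the members (2.06 to 5.19), against 1.73-fold over all genes tested and 1.64-fold over the 9598 genes with a mean of 10 CPM or more. Pearson's r between pairs of members on the log2 scale had a median of 0.943 over 465 pairs of genes and 8 libraries. The lowest, 0.361, was between Myh4 and Smpx. Without female 1 and female 3, the libraries farthest from the median, and with male 1 kept, the median over 6 libraries was 0.897 and the lowest -0.436. Members share each library's depth and scaling, so these values are descriptions. Against the sum of the other members, Myh4 had an r of 0.678 over 8 libraries and 0.137 over 6. The share of the member sum that each gene took varied by less than 2-fold for 29 members, and by 2-fold or more only for Myh2 and Myh4.

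Genes outside the list were ranked by how closely they followed it. Among 9568 genes with a mean of 10 CPM or more, 57 (0.596%) had an r of 0.9 or more with the member sum, and 53 did so over 6 libraries. The 15 most alike included Hrc, Ckmt2, Pgam2, Unc45b, Srl, Cmya5, Myom2, Klhl31, Txlnb, Smyd1, Klhl41, Mylk2, Hk2 and Flnc, and 8 of the 15 stood on the list of 50 other skeletal muscle genes. Hrc encodes a calcium-binding protein of the sarcoplasmic reticulum and was 74.2, 20.5, 69.7 and 29.9 CPM in female libraries 1 to 4 and 59.5, 28.2, 48.3 and 21.4 CPM in male libraries 1 to 4. Its order of libraries was the same as that of the member sum. The 5 least alike were small RNA genes, Gm22866, Mir146b, Gm23845, Mirlet7b and Gm26264. Genes of microRNAs and of small nuclear and nucleolar RNAs took 0.778% of the reads in female 1 and 2.42% in male 4, and that share had an r of -0.789 with the member sum on the log2 scale (n = 8). The part of this library feature in the members' levels was not tested.

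The 50 other skeletal muscle genes summed to 2582, 1212, 2496 and 1442 CPM in female libraries 1 to 4 and to 1979, 1385, 1886 and 1003 CPM in male libraries 1 to 4. Their sum was highest in female 1 and female 3 and lowest in male 4 and female 2, and 36 of the 50 had the same 4 highest libraries. By mean level the first 5 were Pfkm (255 to 508 CPM), the muscle phosphofructokinase, Car3 (155 to 384 CPM), a carbonic anhydrase, Pvalb (104 to 277 CPM), a calcium buffer, Myom2 (31.6 to 126 CPM), a protein of the sarcomere's midline, and Pgam2 (27.6 to 109 CPM), the muscle phosphoglycerate mutase. Myom2 and Pgam2 had an r of 0.989 and 0.993 with the member sum, Pfkm 0.833, Pvalb 0.733 and Car3 0.354. Pvalb is also a known product of proprioceptive sensory neurons, Pfkm of many tissues and Car3 of fat cells. None of the 50 passed the test between labelled sexes.

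The 12 slow and cardiac isoforms had a median range of 5.34-fold between libraries, against 3.47-fold for the members on the same CPM scale. Myh7 was 152, 31.2, 141 and 39.7 CPM in female libraries 1 to 4 and 108, 29.0, 70.7 and 16.1 CPM in male libraries 1 to 4. It was highest in female 1 and female 3 and lowest in male 4, a 9.44-fold range. Tnnc1, the slow and cardiac troponin C, was 10.6, 2.23, 13.9 and 2.63 CPM in female libraries 1 to 4 and 5.14, 0.419, 4.88 and 1.18 CPM in male libraries 1 to 4, a ratio of 33.2 (95% counting interval 11.2 to 163) that rests on 3 reads in male 2. Tnni1 (2.80 to 19.4 CPM), Tnnt1 (4.88 to 28.1 CPM), Myl2 (7.08 to 34.9 CPM) and Myl3 (3.39 to 25.5 CPM), slow troponins and light chains, ranged from 4.93-fold to 7.53-fold. Myoz2 and Myh7b ranged 5.81-fold and 4.52-fold at means of 3.18 and 2.37 CPM, Actc1 3.10-fold, Tpm3 2.17-fold, Casq2 1.83-fold and Atp2a2 1.34-fold. Atp2a2 and Casq2 are also made outside striated muscle. The slow gene's share of its fast and slow pair was 0.668% to 5.70% for troponin C, 2.56% to 5.56% for troponin I and 1.89% to 4.49% for troponin T. It was 6.58% to 13.1% for the regulatory light chain and 2.43% to 6.99% for the essential light chain. For calsequestrin it was higher, 6.23% in female 1 to 31.4% in male 4, and for the calcium pump 28.0% in male 1 to 61.9% in male 4.

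**Figure D4:**
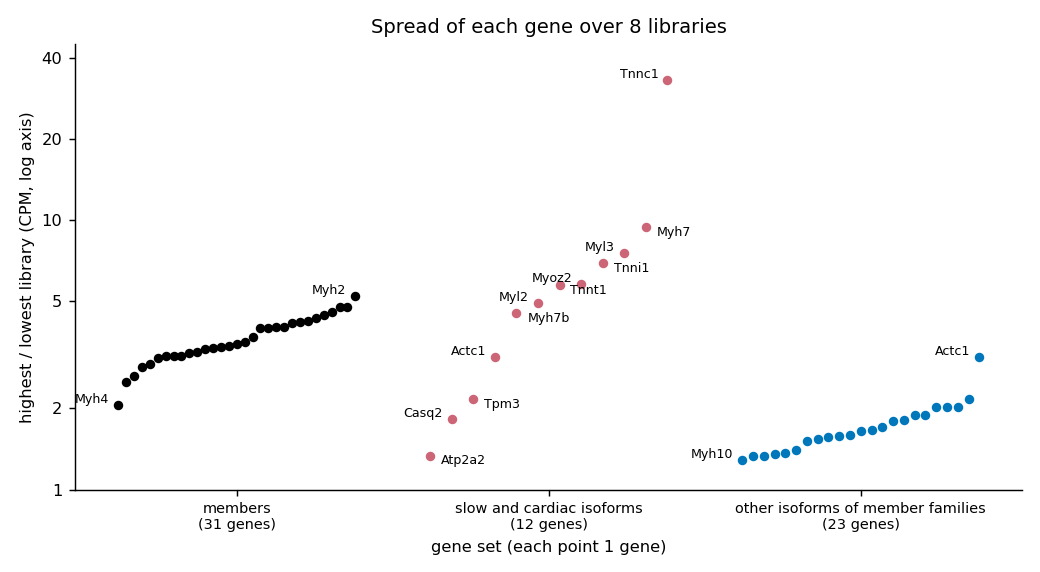
Each point is 1 gene, and the vertical log axis gives its highest over its lowest library in CPM, for the 31 members, all 12 genes of the slow and cardiac list and all 23 genes of the list of other isoforms. Members ran from 2.07-fold to 5.21-fold, slow and cardiac isoforms from 1.34-fold to 33.2-fold, and other isoforms from 1.29-fold to 3.10-fold, with 3 genes standing on both of the last lists.

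Members of the same protein families that are used in other tissues were set beside these genes. The 23 other isoforms had a median range of 1.65-fold, and 5 of them reached 2-fold. Actb was 2651, 3102, 2493 and 2623 CPM in female libraries 1 to 4 and 1968, 3352, 2361 and 2237 CPM in male libraries 1 to 4. Pygb, the brain glycogen phosphorylase, was 938, 774, 955 and 835 CPM in female libraries 1 to 4 and 699, 793, 935 and 771 CPM in male libraries 1 to 4, a range of 1.37-fold against 2.86-fold for Pygm. Ckb, the brain creatine kinase, varied 1.88-fold and Eno2, the neuronal enolase, 2.03-fold, and both were lowest in male 1. Tpm1, a tropomyosin of many cell types including muscle, varied 2.02-fold and had an r of 0.920 with the member sum.

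Markers of other cells that a ganglion sample could hold were set beside the members. Heart markers summed to 110 to 155 CPM, mostly Ryr2, and the lowest were Nppa, Mybpc3 and Myl7, with means of 0.0435, 0.0675 and 0.315 CPM. Tnnt2, Tnni3 and Pln had means of 1.01, 1.55 and 3.62 CPM and an r of 0.753, -0.567 and -0.0755 with the member sum. Myh6 ran from 1.53 to 23.9 CPM with an r of 0.925, and its sequence is close to that of Myh7. Smooth muscle and pericyte genes summed to 600 to 775 CPM, a range of 1.29-fold, led by Acta2 and Pdgfrb. Genes of muscle stem cells and the neuromuscular junction summed to 36.2 to 51.0 CPM. Of these, Cdh15 (14.3 to 22.1 CPM) and Musk (6.93 to 13.4 CPM) were highest, and Pax7, Myod1, Myf5 and Myog, which define stem cells and their early progeny, had means of 0.890, 0.765, 0.216 and 0.121 CPM. Within this list r with the member sum ran from -0.631 (Pax7) to 0.952 (Chrne). Vgll2, Myf6 and Colq had 0.897, 0.838 and 0.830, at means of 3.16, 1.75 and 3.17 CPM, and Chrne had a mean of 1.22 CPM. Musk and Cdh15 had 0.156 and -0.148.

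Lists for tissues around muscle or ganglion are given with their r over 8 libraries and over the 6 without female 1 and female 3. Adipocyte genes (193 to 485 CPM; Lpl and Fabp4 highest) had an r of 0.407 with the member sum over 8 and 0.804 over 6 libraries. Within that list Lpl, lipoprotein lipase, which muscle also makes, had 0.786 and 0.932. The other adipocyte genes ran from -0.0521 (Lep) to 0.567 (Plin4) over 8 libraries. Over 6 libraries they ran from 0.400 (Lep) to 0.837 (Plin1), with Plin4 at 0.745, Cidec at 0.720 and Adipoq at 0.625. Tendon and fascia genes (436 to 716 CPM; Thbs4 and Fmod) had 0.265 and 0.417. Among them r ran from -0.142 (Thbs4) to 0.799 (Tnmd) over 8 libraries and from 0.135 (Mkx) to 0.885 (Kera) over 6. Kera, keratocan, had 0.696 over 8, and Tnmd had 0.687 over 6. Fibroblast genes (11743 to 17613 CPM; Col1a1 and Col1a2) had an r of -0.0538 over 8 and 0.304 over 6 libraries, and bone and cartilage genes (509 to 725 CPM; Spp1 and Col2a1) -0.474 and 0.0600. Blood genes (582 to 2220 CPM; Hba-a1 and S100a9) had -0.378 and -0.546, and spinal cord glia genes (284 to 851 CPM; Gja1 and Cldn11) -0.407 and -0.246. Both of the last lists were highest in male 2. Pan-neuronal genes, led by Map1b and Nefl, had an r of 0.238 and -0.403, and satellite glia and Schwann genes -0.225 and -0.0684. For the sums of heart, smooth muscle, and stem cell and junction genes, r was 0.773, 0.606 and 0.780 over 8 and 0.485, 0.469 and 0.663 over 6 libraries. The libraries share their scaling, and the part of any of these lists in the members' levels was not tested.

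**Figure D5:**
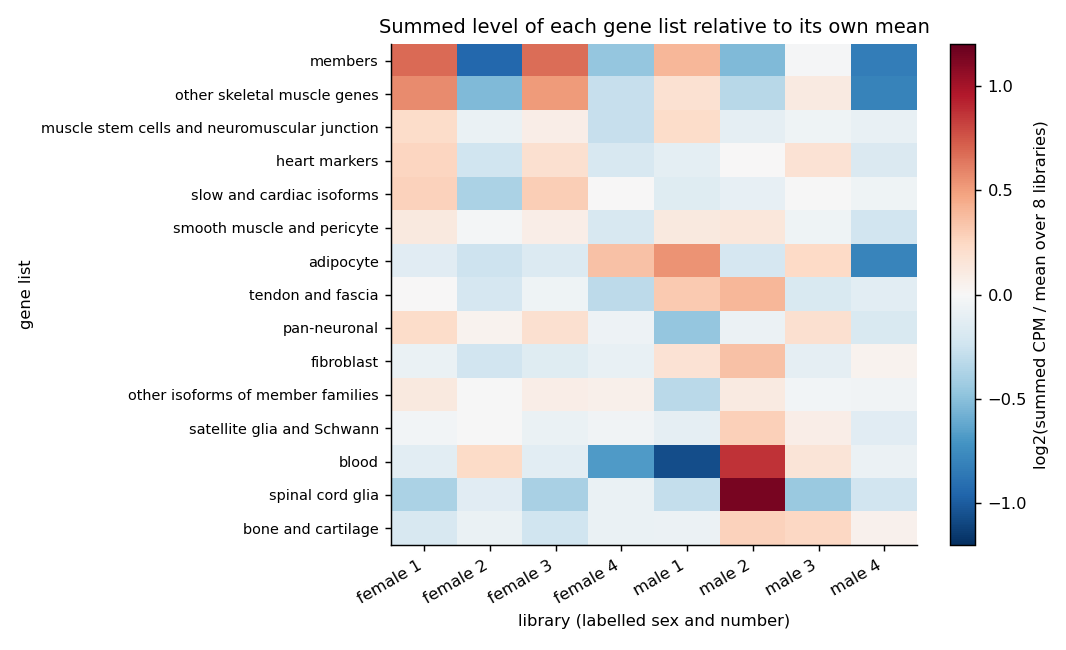
Colours give the log2 of each list's summed CPM over its mean across the 8 libraries, with lists ordered by their r with the member sum. The members and the other skeletal muscle genes are high in female 1 and female 3 and low in female 2 and male 4, and blood and spinal cord glia genes are highest in male 2.

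Genes transcribed from the opposite strand of 3 members followed them from library to library, with an r of 0.976, 0.973 and 0.778 for the partners of Ckm, Myh1 and Myh2 (n = 8). These 3 are the measured partners annotated as antisense that have the highest mean level. Other genes on the opposite strand have no r here, such as Gm20388 opposite Acta1 and Rabep2 opposite Atp2a1, with means of 18.9 and 17.6 CPM. A930016O22Rik, opposite Ckm (chr7:19417466-19421417), ran from 51.5 to 211 CPM, which was 18.6% to 30.8% of the Ckm level. Gm12300, opposite Myh1, ran from 13.0 to 58.5 CPM, and 9430073C21Rik, opposite Myh2, from 4.57 to 31.6 CPM. Whether the counting used strand is not given in the sources used here, so reads of a gene and of its antisense partner cannot be told apart.

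Promoters were read for 24 of the 31 members from RefSeq (GRCm38.p6), as the 250 bases before the first listed start. Neb, Tnni2, Tnnt3, Actn3, Myoz1, Myot and Trdn were not matched. The E-box CAGCTG, a core sequence that myogenic basic helix-loop-helix factors are known to bind, occurred in 12 of 24 members (50%) and in 12.8% of 27025 promoters. The wider form CANNTG, which includes CAGCTG, occurred in 19 (79.2%) and in 66.0% of promoters. The TATAAA box occurred in 4 (16.7%) and in 13.0%, the MEF2 site in 2 (8.33%) and in 0.518%, and the CArG box, known to bind serum response factor, in 3 (12.5%) and in 1.40%. Both strands were searched, and a match is a description of these letters only. The 4 promoters shown were picked because they hold CAGCTG, as those of the 4 members with the highest mean CPM among the 12. Ttn, Myh1 and Myh2 have higher means than Ckm but no CAGCTG in these bases. Sequences run 5′ to 3′ on the gene's strand, with CAGCTG, MEF2, CArG and TATAAA matches in capitals:
Acta1 (chr8:123894776-123895025, - strand): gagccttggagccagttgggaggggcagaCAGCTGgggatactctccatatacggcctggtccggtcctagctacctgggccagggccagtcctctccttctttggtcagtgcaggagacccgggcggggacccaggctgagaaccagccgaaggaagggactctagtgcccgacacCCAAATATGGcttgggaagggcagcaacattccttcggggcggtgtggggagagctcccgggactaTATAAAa
Atp2a1 (chr7:126463074-126463323, - strand): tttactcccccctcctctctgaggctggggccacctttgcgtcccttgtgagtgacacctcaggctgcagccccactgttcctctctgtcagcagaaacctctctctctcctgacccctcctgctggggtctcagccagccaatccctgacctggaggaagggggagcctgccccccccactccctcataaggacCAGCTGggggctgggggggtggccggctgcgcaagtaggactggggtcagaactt
Myh4 (chr11:67237562-67237811, + strand): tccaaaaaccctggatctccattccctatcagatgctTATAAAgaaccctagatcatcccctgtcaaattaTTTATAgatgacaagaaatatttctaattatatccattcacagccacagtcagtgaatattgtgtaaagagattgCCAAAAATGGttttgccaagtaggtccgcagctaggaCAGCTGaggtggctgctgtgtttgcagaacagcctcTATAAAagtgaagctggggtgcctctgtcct
Ckm (chr7:19410844-19411093, + strand): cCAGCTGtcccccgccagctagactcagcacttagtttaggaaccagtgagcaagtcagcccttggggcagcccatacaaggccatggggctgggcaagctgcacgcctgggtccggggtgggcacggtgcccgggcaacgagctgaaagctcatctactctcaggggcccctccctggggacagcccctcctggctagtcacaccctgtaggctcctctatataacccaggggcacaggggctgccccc
Counted from the first base of the match, Acta1 holds CAGCTG 221 and a CArG box 73 bases before the start. Myh4 holds CAGCTG 67, a CArG box 104 and TATAAA 31 bases before its start, and Atp2a1 holds CAGCTG 55 bases before its start.

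The labelled sexes were compared with limma on log2(CPM + 1) over 15720 genes with Benjamini-Hochberg adjustment. None of the 31 members passed an adjusted p of 0.05, where 0% of all genes passed. At an unadjusted p under 0.05, 0 members and 13.4% of all genes (2099) differed. All 31 members had a higher mean log2 level in female libraries, as had 71.7% of all genes, and the median difference was 0.28 for the members and 0.15 for all genes. Under median-ratio scaling the median of all genes moved from 0.15 to 0.0042, and 26 members lay above 0. The largest difference was in Actn3, 0.57 ± 0.32 (log2, SE; adjusted p 0.413, limma with Benjamini-Hochberg), where female libraries averaged 124 ± 60.9 CPM and male libraries 75.6 ± 13.8 CPM (SD, n = 4 each). Mybpc2 (0.56 ± 0.33, adjusted p 0.430) and Mylpf (0.46 ± 0.32, adjusted p 0.494) followed by smallest p in the same limma test. Myh2 had the smallest difference, 0.070 ± 0.50. The labelled sexes were without overlap in 0 members, against 4.55% of all genes in either direction and 3.43% with female libraries higher.

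The replicate number was also fitted as a block, because same-numbered libraries had correlations of 0.288 to 0.592 in their deviations. A deviation is a gene's log2 level minus its mean over the libraries of the same labelled sex, so these are not correlations of the levels. Differently numbered libraries have no such values here, so pairing by number is not shown. By the percentage of genes that differed at p under 0.001, female 1 and male 1 were the least alike pair (37.9%). Female 4 was closer to male 3 (14.9%) than to male 4 (20.2%), whereas female 2 and male 2 were close (14.4%). The block fits are therefore given as alternatives only. With the block, 27 genes (0.172%) passed in limma with Benjamini-Hochberg adjustment, and none of them was a member. At an unadjusted p under 0.05, 10 members were higher in female libraries, against 15.4% of all genes, and the smallest adjusted p of a member was 0.146 (Tnnc2). Outside the members, Tnnc1 passed with the block (log2 difference 1.05, adjusted p 0.0371, limma) and not without it (adjusted p 0.419). In the block without number 2, 5 members passed as higher in female libraries in limma with Benjamini-Hochberg adjustment, against 0.319% of 15654 genes: Mybpc2, Casq1, Tnnc2, Actn3 and Neb, with adjusted p from 0.0205 to 0.0385. That fit keeps all 3 libraries that go against their label and counts the closely alike female 1 and female 3 as separate replicates. These calls are therefore no result about sex. In the block without the 3 libraries that go against their label, which leaves numbers 2 and 4 as pairs, 0 members passed. There 0 members were higher and 1 was lower in female libraries at an unadjusted p under 0.05, against 4.32% of all genes higher, 18 of 31 had a difference above 0, and Tnnc1 had an adjusted p of 0.140 (limma). Without the block and without the 3 libraries that go against their label, 3 of the 31 members had a higher mean in female libraries, against 52.4% of all genes, and 0 members passed.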

How the data were processed

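Ribosome footprints were measured in 8 libraries of mouse dorsal root ganglia, 4 labelled female and 4 labelled male. The submitters' processing notes name FastQC 0.11.5, Bowtie2 2.2.9, TopHat2 2.1.1 and Cufflinks 2.2.1 with mm10 and GRCm38.p4; these notes do not say how reads that fit several genes were counted. The 2 deposited tables hold CPM: their names say TPM, but each library sums to 1e+06 and 95.7% to 96.5% of the values are whole multiples of 1 read within 0.01, which no division by gene length would leave. Values were used as deposited. Rows of the same symbol were summed. Genes that averaged 1 CPM or more were tested between labelled sexes with limma 3.58.1 in R 4.3.3, with an intensity trend, on log2(CPM + 1), with Benjamini-Hochberg adjustment over all 15720 genes at 0.05. The method was also run on simulated data in which each gene and library was drawn independently. Those data held no shared movement of genes and no library against its label, so they do not test the method under these conditions. Same-numbered libraries had correlations of 0.288, 0.492, 0.531 and 0.592 for numbers 1 to 4, and the number was also fitted as a block. These were taken on log2(CPM + 1) after subtracting each gene's mean over the libraries of the same labelled sex. Differently numbered libraries have no such values here, so these correlations do not show pairing by number. Nothing in the labels says what the number marks.

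Coding lengths, shared 28-nucleotide windows and overlapping genes came from GENCODE M21, in which 99.2% of the rows were found, and promoters from RefSeq. Depth was 3697690 to 12714551 assigned reads, so 3 reads make 0.236 to 0.811 CPM. Values are given for all 31 members; those followed library by library are the 10 highest and 3 lowest by mean, the 3 smallest p, and the 3 least like the others by rank correlation, with ties. Actn2 and Mybpc1 in male 1 were picked out after their values were seen. The members and all lists were chosen with earlier results of these data known. Correlations are Pearson's r on log2(CPM + 1) unless stated, with no test. Some genes that the naming rules would pick are not reported here. Alternatives varied the pseudocount, filter, scaling, block and libraries.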

Additional observations from a re-analysis of the deposited data

How the results depend on the processing

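No member passed limma with Benjamini-Hochberg adjustment in any fit without a block. With the replicate block, female libraries were higher for 10 genes and male libraries for 17, against 0 and 0 without it, and 0 members passed. The block was also fitted without 1 number at a time, chosen after seeing the data. There 4 to 50 genes were higher in female and 2 to 113 in male libraries, and 0 to 5 members were higher in female libraries. The 5 were without number 2, a fit that keeps all 3 libraries against their label. Its calls were 50 genes with the higher level in female and 50 in male libraries. Without number 4 the calls were 44 and 82. In the block without the 3 libraries against their label, also chosen after seeing the data and with 1 residual degree of freedom, 56 and 158 genes, 0 members and 18 members above 0 resulted, and the adjusted p of Tnnc1 in limma ran from 0.00504 to 0.154 over the block fits. Leaving out each library in turn, 0 genes passed and 19 to 31 members had a log2 difference above 0, with 20 without female 1, 19 without female 3 and 21 without male 4. Averaging female 1 and female 3 as 1 library left 20, and leaving out the 3 libraries against their label left 3 members above 0 and 5 genes higher in male libraries. The log2 differences over these omissions ran from 0.093 to 0.54 for Acta1, 0.35 to 0.85 for Actn3, -0.086 to 0.47 for Atp2a1, 0.34 to 0.86 for Mybpc2, -0.18 to 0.57 for Myh1, -0.26 to 0.54 for Myh2, 0.0081 to 0.36 for Myh4, 0.26 to 0.74 for Mylpf and -0.13 to 0.56 for Ttn. Signs turned under median-ratio scaling for Ttn (-0.014), Myh4 (-0.015), Myh1 (-0.034) and Myh2 (-0.090), and for Myh2 with quantile normalization (-0.0077) and protein-coding genes alone (-0.029). Without the 3 libraries they turned for Ttn (-0.40), Atp2a1 (-0.22), Myh4 (-0.31), Myh1 (-0.48), Myh2 (-0.12), Actn3 (-0.0011) and Mybpc2 (-0.054), and with the averaged pair for Ttn (-0.13), Atp2a1 (-0.046), Myh1 (-0.18) and Myh2 (-0.15). The cause was not tested. The log2 ratio of the mean summed level, female over male, was 0.31 (pooled SD 0.70), 0.084 to 0.57 without 1 library, -0.0088 relative to pan-neuronal genes and -0.27 without the 3 libraries. Planned count tests on recovered reads were not run, because the check of units did not accept the recovery of whole reads. Of the values, 95.7% to 96.5% were whole multiples of 1 read. The counting intervals and the comparison of library pairs used reads rounded to whole numbers.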

Other observations

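Mitochondrial ribosomal RNA genes took 3.21% of the reads in female 1 and 15.6% in male 1, the shallowest library, and protein-coding genes took 93.8% and 78.3% in the same libraries. None of 64 groups of 4 libraries, which were the levels of the 31 members and their sum by labelled sex, held a library that stood apart by Dixon's criterion. The criterion compares the most extreme library with the next. It could not flag female 1 or female 3, which lay close together at the top.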
